A study of Macaca fascicularis with 3 samples.

Results

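The level of miR-21 was followed in cortex tissue from the kidneys of 3 naïve cynomolgus monkeys, Macaca fascicularis. Its rows were found by name, as every row of the raw table whose stem is exactly miR-21 with any arm suffix or none. This gave 2 of the 432 listed mature miRNAs, miR-21-5p and miR-21-3p, and no row without an arm. The series held 1 group of untreated animals, 2 to 3 years old, with 1 small RNA library per animal made from frozen cortex, the outer zone of the kidney with the glomeruli and most proximal tubules. There was no injured, treated or diseased group, so the data describe the resting level of miR-21 and its spread between animals.

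miR-21 is a microRNA, a small RNA that guides Argonaute proteins to messenger RNAs and lowers their output. Its precursor is a hairpin that Dicer cuts into a duplex, from which the 5p strand is usually kept as the guide while the 3p strand, the passenger, is mostly degraded. It is among the best known injury miRNAs of the kidney: it rises in acute and chronic damage, and in animal models its loss reduces fibrosis. Well studied targets are PDCD4, a tumour suppressor that restrains translation, and PPARA, a regulator of fatty acid oxidation in tubule cells. Mature sequences and genome positions of the arms were not used here.

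miR-21-5p, the guide strand, was an abundant miRNA of the untreated cortex and differed little between the animals. It had 63710 counts in animal 1, 66478 in animal 2, and animal 3 had 59560. Levels are given as CPM, the count per 1000000 counts assigned to listed miRNAs in the library. The level of the guide was 14796 CPM in animal 1, 14121 CPM in animal 2 and 15051 CPM in animal 3. These values lay close together, with a mean of 14656 CPM ± 481 (SD, n = 3) and a coefficient of variation of 3.28%. The guide thus held 1.47% ± 0.0481 (SD, n = 3) of the counts. By animal this was 1.480% (animal 1; Wilson 95% limits 1.468 and 1.491), 1.412% (animal 2; limits 1.401 and 1.423) and 1.505% (animal 3; limits 1.493 and 1.517). None of the 3 intervals overlapped, so the libraries differed beyond counting error although the differences were small. In a chi-square test given below, 315 of 391 miRNAs (80.6%) also differed beyond counting error. Intervals of this kind cover counting error only. The labels describe no molecular identifiers, so the intervals may be too narrow even for that. In bulk tissue, fewer cells of a type and less RNA per cell cannot be told apart.

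miR-21-3p, the passenger strand, was far scarcer and varied much more. It had 430 counts in animal 1, 236 in animal 2 and 89 in animal 3, or 755 in all. Its level was 99.9 CPM in animal 1, 50.1 CPM in animal 2 and 22.5 CPM in animal 3, with a mean of 57.5 CPM ± 39.2 (SD, n = 3). Animal 1 was therefore 1.99-fold above animal 2 and 4.44-fold above animal 3. The coefficient of variation of the passenger was 68.2%, which is 20.8 times that of the guide. The mean of the passenger was 36.3 CPM without animal 1 and 75.0 CPM without animal 3, while that of the guide was 14458 CPM without animal 3.

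**Figure D1:**
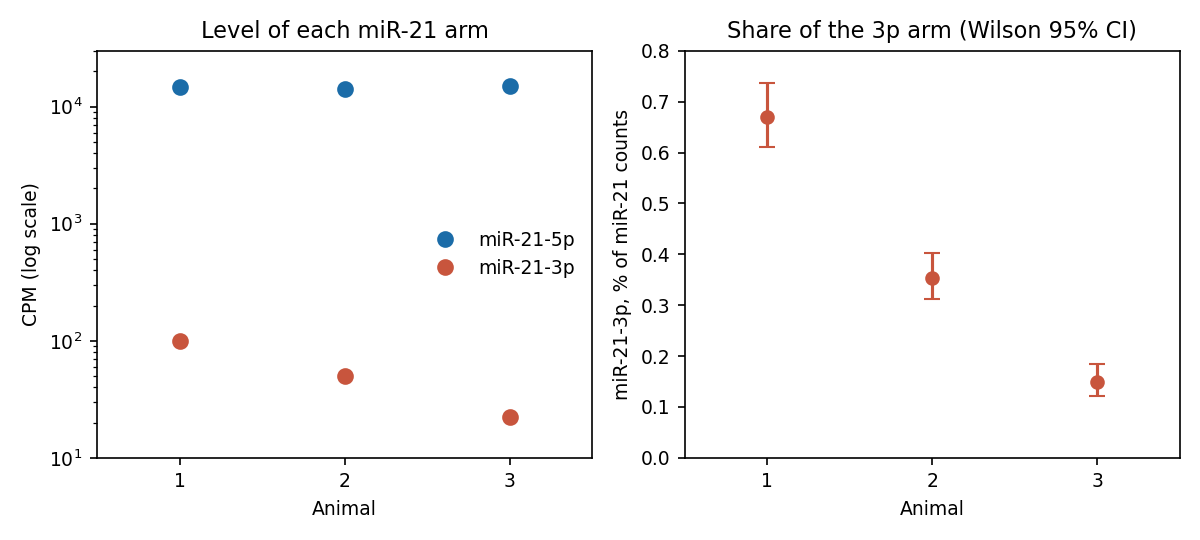
Left, CPM on a log scale of miR-21-5p and miR-21-3p in each of the 3 animals; right, miR-21-3p as a percentage of all miR-21 counts, with Wilson 95% confidence intervals as bars. The 5p points lie between 14121 and 15051 CPM, whereas the 3p points run from 22.5 to 99.9 CPM and the 3 intervals on the right do not overlap.

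Counts assigned to listed miRNAs totalled 4305977, 4707892 and 3957188 in animals 1, 2 and 3. The library of animal 3 stands apart in that 26 of 391 miRNAs lay at a log2 deviation of -2 or below from the other animals, against 2 in animal 1 and 2 in animal 2. The passenger was not one of these, with a deviation of -1.48 in animal 3, and 37 of the 391 miRNAs deviated further downward. The renal list, miRNAs known from kidney tubules (miR-204, miR-192, miR-215 and miR-194), summed to between 53073 and 61982 CPM. Of the mean sum of 57370 CPM, miR-204-5p made up 48124 CPM, whereas miR-215-5p had 18.9 CPM. Liver miR-122a-5p had a mean of 6.63 CPM and muscle miR-1-3p a mean of 415 CPM.

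Among all 432 names, the guide ranked at position 19 by mean CPM. In single libraries it was at position 20, 21 and 20 for animals 1, 2 and 3. The passenger ranked at 200 by mean CPM and at 180, 214 and 241 in animals 1, 2 and 3. Guide and passenger of one hairpin thus lay at very different depths, and the position of the guide moved far less between libraries than that of the passenger.

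**Figure D2:**
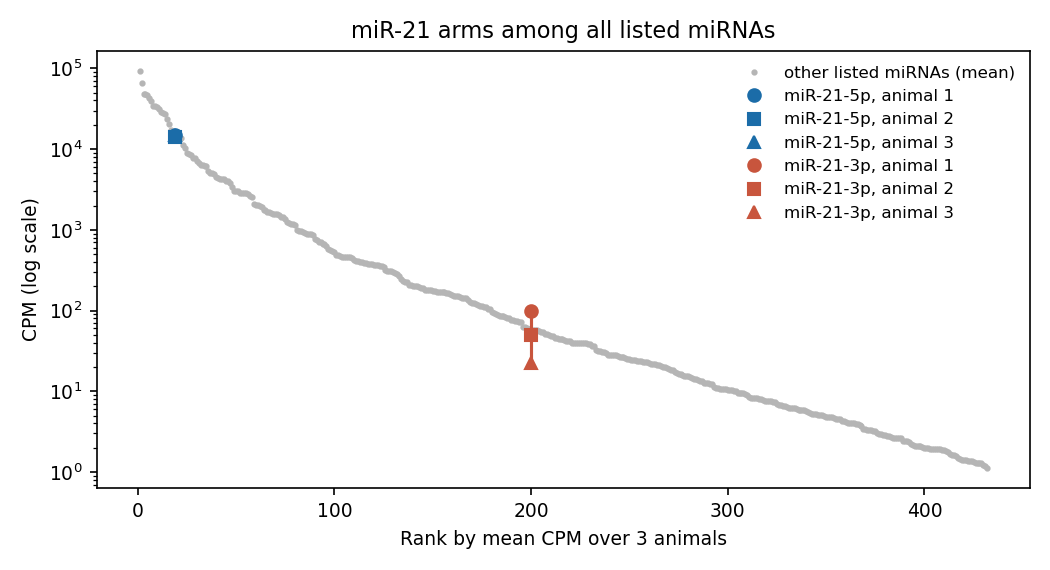
Mean CPM on a log scale of the 432 listed miRNAs, in grey, against their rank, with the values of each animal drawn for the arms of miR-21. The symbols of miR-21-5p at rank 19 lie on top of each other, and those of miR-21-3p at rank 200 spread from 22.5 to 99.9 CPM.

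The neighbours of the guide in the order of levels were compared with it within each library, where scaling between libraries plays no part. Above it were let-7g-5p, miR-19b and miR-101-3p, and below it miR-23b-3p, miR-29a-3p and miR-27b-3p. let-7g-5p exceeded miR-21-5p in 3 of 3 animals, the mean log2 ratio of miR-21-5p to let-7g-5p being -0.466 ± 0.231 (SD). miR-19b also exceeded it in 3 of 3 animals (mean log2 ratio -0.222 ± 0.114). An exact permutation test over sign flips, two-sided, gave p = 0.25 for each of these, the smallest that 3 animals allow. miR-101-3p could not be separated from the guide, with a mean log2 difference of -0.00044 ± 0.024 (SD) and an exact permutation p of 1. miR-23b-3p, with 78233, 97506 and 12721 counts in animals 1, 2 and 3, was above the guide in 2 animals and far below it in animal 3. miR-29a-3p lay below the guide in 2 animals (mean log2 difference 0.082 ± 0.112), as did miR-27b-3p (0.105 ± 0.216). Over the 12 such comparisons made for both arms no p could reach 0.05, and every value was 1.0 after Benjamini-Hochberg adjustment.

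The neighbours of the passenger were miR-187-3p, miR-155 and miR-9-5p above it, and miR-92b-3p, miR-96 and miR-151-3p below it. Their means ran from 56.7 to 62.5 CPM, against 57.5 CPM for the passenger, and no neighbour kept its order with the passenger in 3 of 3 animals. miR-155, an inflammation miRNA of leucocytes, had 321, 334 and 137 counts in animals 1, 2 and 3. At this level the order was not resolved beyond the spread between animals.

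The spread between animals was then set beside that of 391 miRNAs averaging 10 or more counts. For this, CPM was divided by factors from the trimmed mean of M values (TMM), a scaling that assumes most miRNAs to be equal between libraries. On this scale the guide was at 14636, 13424 and 16005 CPM in animals 1, 2 and 3, so the highest animal was 1.19-fold above the lowest. The median span of the 391 miRNAs was 1.69-fold, and 30 of them had a smaller span than the guide. Many of the 391 had far fewer counts than the guide, and counting error widens their spans. Among the 179 miRNAs with a mean of at least 100 CPM the median span was 1.54-fold. Of these 179, 19 (10.6%) had a smaller span than the guide. With library totals alone the span of the guide was 1.07-fold, and only miR-199a, its duplicate name miR-199a-5p and miR-369-5p had a smaller one. In the authors' normalized signal, left unscaled for library size, miR-21-5p had 63024.5, 63197.9 and 63332.7, a span of 1.005-fold and the smallest among the 391. Over these scalings and DESeq2 size factors the span of the guide ran from 1.005-fold to 1.25-fold. For the authors' signal and the library totals the median span of all miRNAs was 1.70-fold, again above that of the guide. Animal 3 was the highest under each of the first 3 scalings, while animal 2 was lowest by CPM and animal 1 by the authors' signal.

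For the passenger the TMM-scaled values were 98.8, 47.7 and 23.9 CPM, a span of 4.13-fold. Of the 391 miRNAs, 156 (39.9%) spanned more than 2-fold, the passenger among them and the guide not. A span of more than 4-fold was seen in 49 (12.5%), counting 3 with 0 counts in an animal, and 44 miRNAs with counts in every animal spanned more than miR-21-3p. The span of the passenger was 2.07-fold without animal 3 and 1.99-fold without animal 1. The passenger lay above the median span under these scalings too, with 4.44-fold for library totals and 4.50-fold for the authors' signal.

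**Figure D3:**
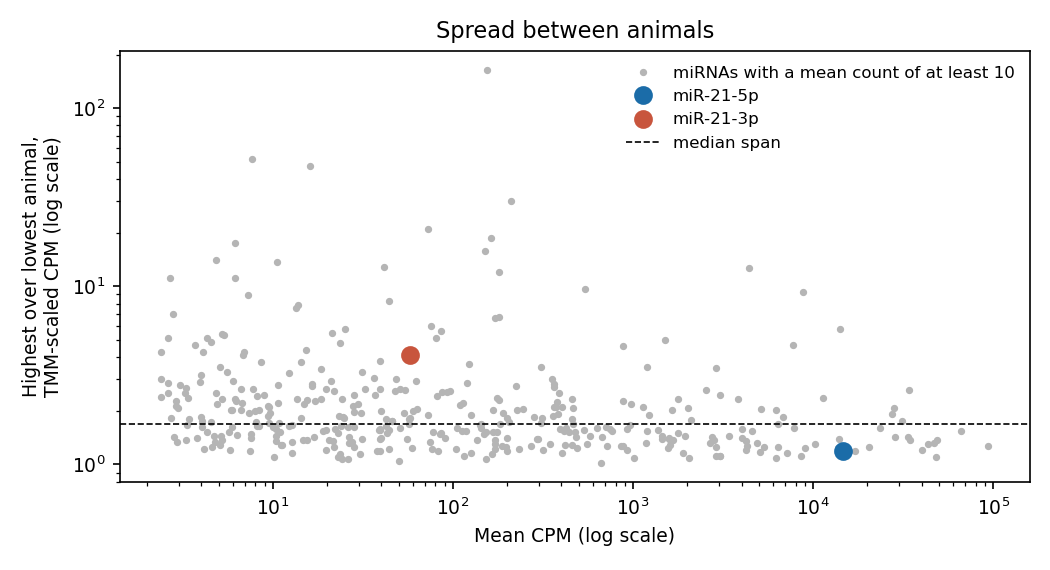
Ratio of the highest to the lowest animal in TMM-scaled CPM against mean CPM, both on log scales, for the miRNAs averaging 10 or more counts, leaving out 3 with 0 counts in an animal. miR-21-5p lies at 1.19-fold, under the dashed median of 1.69-fold, and miR-21-3p at 4.13-fold, above it.

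A chi-square test of homogeneity compared the libraries with counting error, with Benjamini-Hochberg adjustment over the 391 miRNAs. It called 315 of 391 miRNAs (80.6%), and both arms of miR-21 were among them. The adjusted p was 2.73e-211 for the guide and 1.53e-45 for the passenger. Most miRNAs were thus called, and the smaller p belonged to the guide, the arm with more counts and the smaller difference. The test shows only that the 3 libraries differed by more than counting error, a spread that may be biological or technical, and says nothing of a condition.

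The ratio of the arms was taken within each library. miR-21-5p exceeded miR-21-3p 148-fold in animal 1, 282-fold in animal 2 and 669-fold in animal 3. The mean log2 ratio was 8.25 ± 1.09 (SD, n = 3), a geometric mean of 303-fold. The guide was the major arm in 3 of 3 animals, with p = 0.25 in the exact two-sided permutation test, the smallest possible. As a share of all miR-21 counts, the passenger made up 0.670% in animal 1, with Wilson 95% limits of 0.610 and 0.737. The share was 0.354% (limits 0.311 and 0.402) for animal 2 and 0.149% (limits 0.121 and 0.184) for animal 3. None of these intervals overlapped. Between animals 1 and 3 the ratio changed 4.52-fold, the CPM of the guide 1.02-fold and that of the passenger 4.44-fold.

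The arm share was compared in the same way for 122 hairpins, those with a row for each arm and at least 10 counts for the arms together on average. A chi-square test of the arm share, added after the counts were seen, called 82 of 122 hairpins (67.2%) different between libraries after Benjamini-Hochberg adjustment, and miR-21 was one of them with an adjusted p of 5.04e-47. Without animal 3 it called 41 of 122 hairpins, miR-21 still among them with an adjusted p of 1.15e-14. By mean log2 ratio, miR-21 ranked at 22 of the 119 hairpins whose ratio was defined in every animal, and the median hairpin had a mean log2 ratio of 4.30. Directly above it was miR-30b, with a mean log2 ratio of 8.32 ± 1.40 (SD), and directly below it miR-195, with 8.16 ± 0.409. Their difference from miR-21 was smaller than the SD of miR-21 itself. Hairpins with few counts cannot show a ratio this high. Among the 37 hairpins whose arms together averaged 10000 counts or more, the median of the mean log2 ratios was 9.02. In 20 of these 37 it was higher than in miR-21. The chi-square test of the arm share called 31 of these 37.

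The log2 ratio of miR-21 ranged over 2.18 between the extreme animals, against a median range of 1.19 over the 119 hairpins, of which 27 ranged further. The 3 other hairpins, those of miR-127, miR-20b and miR-654, had 0 counts of the minor arm in animal 3 and no defined range. With that arm set at the floor of 3 counts in that library, the upper limit that a count of 0 allows, their range was at least 3.10, 2.55 and 0.938, so the first 2 also ranged further than miR-21. Between animals 1 and 2 alone the log2 ratio of miR-21 differed by 0.927, against a median of 0.469 over all 122 hairpins, of which 23 differed more. Of the 37 hairpins whose arms together averaged 10000 counts or more, a limit chosen after the counts were seen, 9 ranged further than miR-21, those of miR-103, miR-107, miR-10a, miR-10b, miR-143, miR-204, miR-23b, miR-29c and miR-30b. The median range of these 37 was 1.37. Between animals 1 and 2, miR-29c and miR-424 were those of the 37 that differed more. The minor arms of those had at most 11 counts per library, whereas miR-21-3p had 430 and 236. Below that limit there were hairpins with more such counts that also differed more than miR-21. Among them miR-362 differed by 2.76, with 139 and 882 counts of its minor arm in animals 1 and 2. miR-148b differed by 1.18 (74 and 154 counts) and miR-154 by 1.06 (143 and 87 counts). From animal 1 through animal 2 to animal 3 the log2 ratio rose in 9 of the 37, miR-21 among them. In the same order it fell for miR-29c, miR-23b, miR-107, miR-148a, miR-200a, miR-15a and miR-151, also of the 37. It likewise fell for let-7a, let-7b, let-7c, let-7e and let-7g. Of the 119 hairpins with a defined range, 29 rose in this order. What lies behind the difference in arm ratio was not tested. With the libraries thinned to the same total, the mean log2 ratio was 8.24, against 8.25 in the full libraries.

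**Figure D4:**
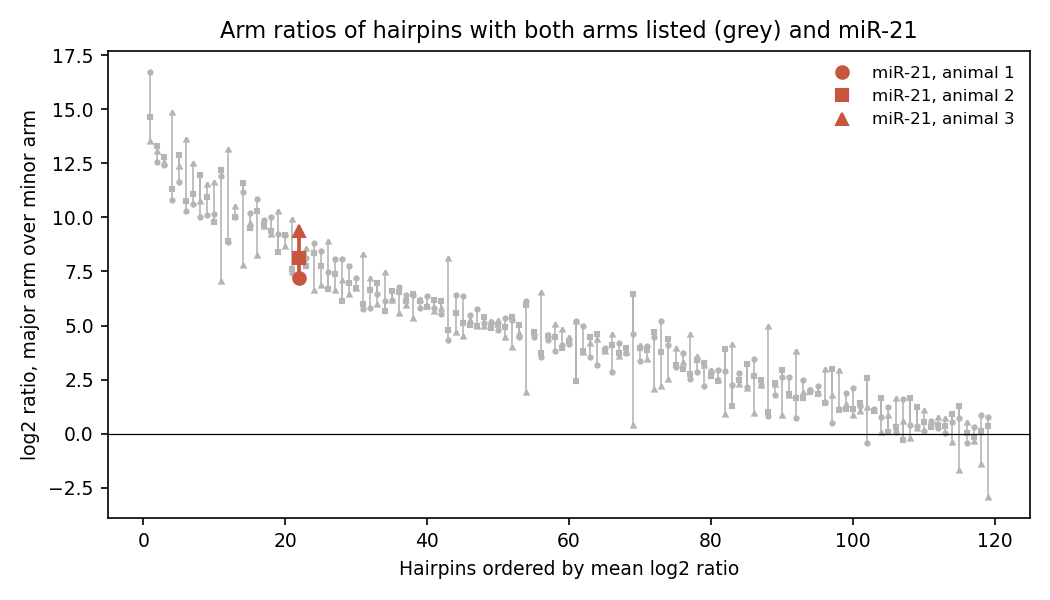
log2 ratio of the major over the minor arm in each animal (circle, square and triangle for animals 1, 2 and 3) for 119 hairpins ordered by their mean, with lines joining the animals. miR-21, in red at position 22, runs from 7.21 in animal 1 to 9.39 in animal 3.

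miR-21 is expressed by many cell types, leucocytes among them, so lists of miRNAs from other cell types were set beside it. All 4 listed names of the leucocyte list (miR-142, miR-150 and miR-223) had counts in every animal. Their sum was 1621 CPM in animal 1, 1727 CPM in animal 2 and 1518 CPM in animal 3. The erythroid list (miR-451, miR-144 and miR-486) summed to 5025, 4374 and 5765 CPM and the vascular list (miR-126, miR-143 and miR-145) to 71708 to 85190 CPM, with no name at 0. The leucocyte names did not share the same order over the animals. miR-142-3p and miR-223 were highest in animal 2, miR-150-5p in animal 3 and miR-142-5p in animal 1. The sums of the other lists hid such differences too. In the vascular list miR-126 and miR-143-3p were highest in animal 1, and miR-145-5p in animal 3. Of the erythroid names miR-144 was highest in animal 1 and miR-451 in animal 3. The part of these cell types in the level of miR-21 was not tested.

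miR-21 was next placed among other miRNAs described in kidney injury and fibrosis, from lists drawn up with earlier results of these data known. The injury list held miR-18a, miR-34a, miR-132, miR-146a, miR-146b, miR-155, miR-199a, miR-210, miR-214, miR-223, miR-382 and miR-433, all described as changed in damaged kidney, and covered 18 names. miR-21-5p was above all 18 in 3 of 3 animals. The guide ranked at 19 of all 432 listed names, so most names of any list would lie below it. The 18 names also included minor arms with few counts. Summed together they had a mean of 14349 CPM, so the guide alone was at 1.02 times their sum. The nearest was miR-199a-3p, a miRNA of stromal cells, with a mean of 7169 CPM ± 922 (SD, n = 3), and the guide was 2.04-fold higher. The other arm, under the name miR-199a, had 3018 CPM ± 50.9. miR-34a-5p, a p53 target, had 1585 CPM ± 351, so that the guide was 9.25-fold higher. The inflammation miRNAs were lower still, with 379 CPM ± 168 for miR-146a-5p, 362 CPM ± 122 for miR-146b-5p and 60.0 CPM ± 22.1 for miR-155. miR-214-3p, from the same transcript as a copy of miR-199a, had 483 CPM ± 91.5, and miR-210-3p, induced by hypoxia, had 86.2 CPM ± 18.7.

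Further members of the injury list lay in the same range or lower. miR-214-5p had 346 CPM ± 71.5, miR-18a-5p 402 CPM ± 52.9, miR-223 of myeloid cells 182 CPM ± 55.5 and miR-132-3p 175 CPM ± 65.0. The 6 others, both arms of miR-382 and the minor arms of miR-34a, miR-132 and miR-146b with miR-433-3p, had means between 6.16 and 30.7 CPM. The passenger of miR-21, at 57.5 CPM, thus stood close to miR-155 and above these 6. The chi-square test of homogeneity called 14 of the 18 names different between libraries, close to the 80.6% of all miRNAs. Their median span was 1.42-fold against 1.69-fold for all. The guide was exceeded in span by 14 of the 18, against 357 of all 391 miRNAs.

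The antifibrotic list held miR-29a, miR-29b, miR-29c, miR-141, miR-429 and miR-200a, miR-200b and miR-200c. The miR-29 family represses collagen genes and the miR-200 family keeps the epithelial state, and both are described as opposing fibrosis. The listed names numbered 12, from 6 of the 8 stems, with none for miR-200b and miR-141. miR-29b-3p, at 39929 CPM ± 3192 (SD, n = 3), and miR-29c-3p, at 28572 CPM ± 4190, lay above miR-21-5p in 3 of 3 animals, and the guide was at 0.367 and 0.513 times their mean. miR-29a-3p was level with the guide at 13896 CPM ± 1512, lower in 2 of 3 animals. miR-200a-3p had 10198 CPM ± 1688 and miR-429-3p 9011 CPM ± 1435, both lower than the guide in 3 of 3 animals. The 7 other names were below 150 CPM on average, among them miR-29b-2-5p with 143 CPM ± 38.5. In this untreated cortex the guide of miR-21 thus lay below miR-29b-3p and miR-29c-3p and above the strands of the miR-200 family listed.

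**Figure D5:**
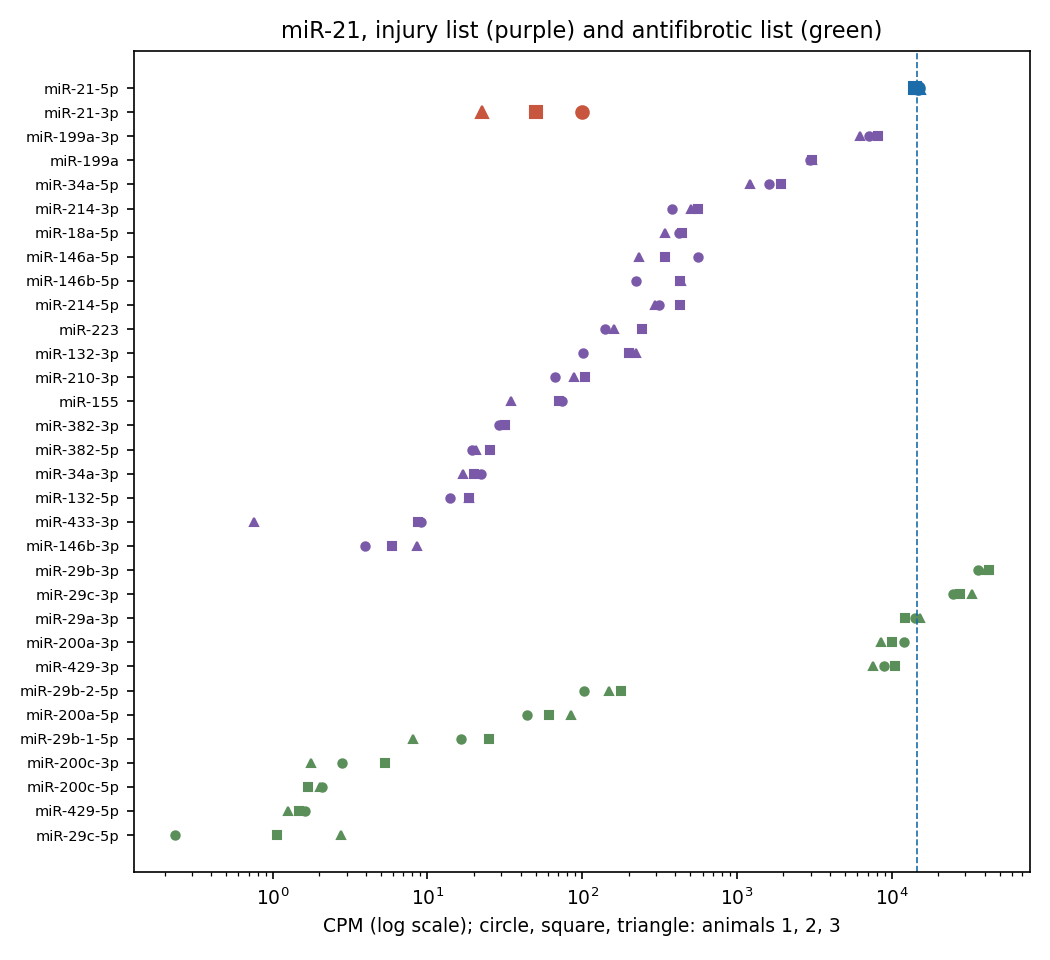
CPM on a log scale in each animal for the arms of miR-21 (blue and red), the injury list (purple) and the antifibrotic list (green); the dashed line marks the mean of miR-21-5p. Only miR-29b-3p and miR-29c-3p lie to the right of the line in every animal, and every name of the injury list lies to its left.

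miR-590-5p is known to share the seed of miR-21-5p, and therefore many predicted targets. It was added after its values were seen. It had 40, 81 and 79 counts in animals 1, 2 and 3, a mean of 15.5 CPM ± 5.54 (SD, n = 3), and miR-21-5p was 946-fold higher. Nearly all counts of this seed pair therefore came from miR-21-5p.

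The miRNAs whose pattern over the 3 animals was most like that of each arm were named by distance. Each miRNA was described by its 3 log2 deviations of TMM-scaled CPM from its own mean, among miRNAs with a mean of at least 100 CPM. Nearest to miR-21-5p were miR-101-3p, at a distance of 0.0337, miR-25 at 0.0473, miR-30e-5p at 0.0535, miR-101-1-5p at 0.0828 and miR-10b-5p at 0.0844. The median distance of the 177 compared was 0.429. miR-101-3p had 62530, 67042 and 60228 counts in animals 1, 2 and 3, nearly those of miR-21-5p in each library, and was thus close to it in level as well as in pattern. The pattern these share is a slightly lower value in animal 2 and a higher one in animal 3.

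Nearest to miR-21-3p were let-7a-5p, at a distance of 0.446, miR-423-5p at 0.548, let-7c-5p at 0.595, miR-146a-5p at 0.600 and miR-454-3p at 0.623, against a median of 1.54 over the 178 compared. These distances are larger than those for the guide. The passenger itself lay below the limit of 100 CPM, and miRNAs at its own level were not compared with it. The counts of let-7a-5p were 214356, 160438 and 70043 for animals 1, 2 and 3, and those of miR-146a-5p were 2416, 1618 and 916. Like the passenger, both were highest in animal 1 and lowest in animal 3. A likeness over 3 libraries has few degrees of freedom and was given no test.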

How the data were processed

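Small RNA of kidney cortex was sequenced in 3 animals, 1 library each. Per the file headers, the authors deposited read counts per mature miRNA after mapping to M. fascicularis miRNAs with 0 mismatches, keeping miRNAs with at least 15 reads; the aligner, miRNA release and handling of reads fitting several names were not given in the sources used here. Perfect matching leaves out reads with end additions or errors, which can lower 1 arm more than another. The deposited normalized signal was made by the authors with edgeR, per the file headers, and is the count over the TMM factor, without scaling to the library total.

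CPM and shares were computed from the counts over each library total. TMM factors (1.01, 1.05 and 0.940) came from edgeR 4.0.16 in R 4.3.3, size factors for an alternative from DESeq2 1.42.0. With a single group, no comparison of conditions exists; libraries were compared by chi-square tests, with Benjamini-Hochberg adjustment over miRNAs averaging 10 or more counts, or over hairpins, and a threshold of 0.05, tested on simulated data. The chi-square p-values set the libraries against counting error and depend on the number of counts. They do not measure the size of the spread between these libraries, which may be technical. Named were both arms, their 3 rank neighbours on each side, the 5 nearest patterns, the hairpins directly above and below, and list members with a mean of at least 1 CPM; the naming of seed relatives by sequence was not run. Members and lists were chosen with earlier results of these data known.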

Additional observations from a re-analysis of the deposited data

How the results depend on the processing

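Recalculations left out each animal or used other scalings, count minimums, a pseudocount of 1, libraries thinned to the smallest or duplicate names counted once. They gave 78 values of 14 results, of which 67 stayed within the limit set for their result. Levels, ranks and the arm ratio were held to about the spread between animals. Spans were held to the spread of the spans with each animal left out. Tests were held to the threshold, counts of calls to a set ratio and differences from neighbours to their sign. The number that stayed does not measure stability, because several values could not have moved that far. The span of miR-21-5p was 1.07-fold with library totals, 1.25-fold with DESeq2 size factors and 1.005-fold in the authors' signal. Leaving out animals gave it 1.09 to 1.19 and gave miR-21-3p 1.99 to 4.13, since a span over fewer animals is narrower by construction. The log2 difference from miR-101-3p ranged from -0.014 to 0.0074 and changed sign, as did that from miR-23b-3p, from -0.424 to 0.965 and negative only without animal 3, the animal in which miR-23b-3p was low. Hairpins with a called arm share numbered 41 to 72 of 122 when an animal was left out. The test of the arm share and its alternatives were chosen after seeing the data. With 89 counts in its lowest library, miR-21-3p limits the precision of the arm ratio. No paired analysis was possible because all 3 libraries belong to 1 group.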
